A study of Mus musculus with 5 samples.

Results

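Glucagon (Gcg) and transthyretin (Ttr) were measured cell by cell in pancreatic islets of non-pregnant, pregnant and postpartum mice. They are 2 of the 6626 genes shared by all deposited files. Both genes were chosen by name. Each cell was classed by the largest of 4 hormone transcripts, the sum of Ins1 and Ins2 (insulin), Gcg, Sst (somatostatin) and Ppy (pancreatic polypeptide). By this rule 560 of 4687 cells were glucagon-led, which is the class in which both genes were studied most closely. Because Gcg itself defines that class, a high Gcg level in it is part of the definition and not a result.

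Islets of C57BL/6 mice were isolated, dissociated and profiled by inDrop, a droplet method in which every captured polyadenylated transcript is tagged with its own molecular identifier (UMI) so that copies are counted once. Non-pregnant females gave 1 library, pregnant females 2 (called pregnant 1 and pregnant 2) and postpartum females 2 (called postpartum 1 and postpartum 2). All groups share strain, sex and tissue, and the labels give no age, day of pregnancy or day after birth. Nothing says that libraries of a group came from separate mice, so p-values speak only of these libraries, whose spread may be technical. In the main comparison of groups within glucagon-led cells, that spread was taken from a trend over all genes tested, not gene by gene.

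Glucagon is the hormone of the islet alpha cell, made from proglucagon by prohormone convertase 2, and it raises glucose output by the liver. Transthyretin is a secreted carrier of thyroid hormone and, bound to retinol-binding protein, of vitamin A. It is best known as a product of liver and choroid plexus, and it is also an abundant transcript of alpha cells in mouse islets.

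In the RefSeq annotation of GRCm38.p6, Gcg lies on the minus strand of chromosome 2 (62474530 to 62483653, 9124 bases), with 6 exons in its main GENCODE transcript. The Gcg promoter is shown because Gcg defines the class of cell in which Ttr was highest. The 250 bases before the Gcg start in RefSeq (GRCm38.p6, chr2:62483654-62483903, minus strand) read 5′ to 3′, with capitals at each TATAAA and TAAT match on either strand:
Gcg promoter: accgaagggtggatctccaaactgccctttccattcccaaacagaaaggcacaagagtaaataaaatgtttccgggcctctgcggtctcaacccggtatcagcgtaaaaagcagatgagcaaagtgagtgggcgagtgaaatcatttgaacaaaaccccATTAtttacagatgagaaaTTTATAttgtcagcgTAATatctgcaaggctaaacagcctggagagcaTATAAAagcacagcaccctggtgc
TATAAA matched at 2 places, beginning 24 and 72 bases before the start, and 12.4% of 32851 promoters of the same length hold it. TAAT, a homeodomain core, also matched at 2 places, 57 and 91 bases before the start, and 54.9% of promoters hold it. The E-box CANNTG matched at 3 places and is in 66.2% of promoters. TNTTTAC, a forkhead core, matched at 3 places and is in 10.9%. All 4 motifs were searched on both strands. The forkhead match nearest to the start overlaps a TAAT match and an E-box. These matches describe the letters only.

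The libraries differed widely in depth. Values in library order are given for non-pregnant first, then pregnant 1 and 2, then postpartum 1 and 2. In this order the libraries held 847, 1993, 164, 557 and 1126 cells with a median of 2553, 539, 89, 236 and 572.5 UMIs per cell. Pregnant 2 stood apart, with 1193 detected features against 6070 to 27309 in the others. The non-pregnant file was also scaled differently and lists more features, so effects of the non-pregnant state and of file and depth cannot be told apart. The files number the cells and carry no barcodes, and 0 cells had a count profile identical to that of another cell.

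Glucagon-led cells numbered 94, 141, 23, 123 and 179 in library order. They made up 11.1% of non-pregnant cells (exact 95% interval 9.06 to 13.4), 7.07% of pregnant 1 (5.99 to 8.29) and 14.0% of pregnant 2 (9.10 to 20.3). The shares were 22.1% of postpartum 1 (18.7 to 25.8) and 15.9% of postpartum 2 (13.8 to 18.2). These intervals cover counting error only. Both postpartum shares were above the non-pregnant share, but the interval of pregnant 2 overlapped those of the non-pregnant and both postpartum libraries. The 2 pregnant libraries lay on either side of the non-pregnant one. With 2 libraries against 2, the smallest exact permutation p is 0.333, and with 1 against 2 it is also 0.333.

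Markers of alpha cells other than Gcg and Ttr were higher in glucagon-led than in insulin-led cells of every library. The summed level of 6 measured markers, Irx1, Irx2, Gc, Slc7a2, Peg3 and Gpx3, was 2162 to 6919 CPM (UMIs per 1000000 UMIs of a cell, averaged over cells) in glucagon-led cells and 0 to 967 in insulin-led cells. In pregnant 2, 4 of these 6 markers were at 0 in glucagon-led cells, so the label rests on little else than Gcg there. Beta cell markers other than insulin (10 used) summed to 537 to 7605 CPM in glucagon-led cells against 32824 to 82440 in insulin-led cells. Acinar markers reached at most 152, endothelial markers 175 and immune markers 403 CPM in glucagon-led cells. Ductal markers (5 used) summed to 1572, 894, 0, 603 and 633 CPM in glucagon-led cells in library order, against 820, 844, 314, 233 and 398 in insulin-led cells. Delta cell markers (2 used) summed to 0 to 876 CPM against 0 to 227. The part of these cell types in the results was not tested. Gamma cell markers, mostly Pyy, the peptide YY gene, summed to 11193 to 39867 CPM there.

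**Figure D1:**
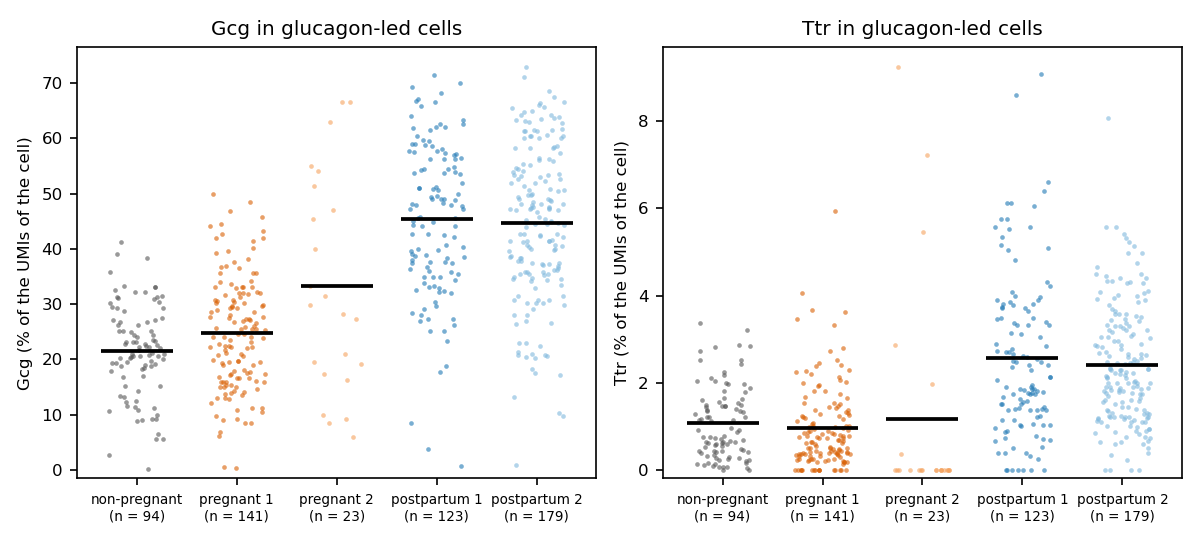
Gcg (left) and Ttr (right) in single glucagon-led cells, as a percentage of the UMIs of the cell, by library. Each point is 1 cell and each black line the mean of a library. The postpartum means, 45.3% and 44.7% for Gcg and 2.56% and 2.40% for Ttr, lie above those of the other libraries for both genes.

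Both genes took a larger part of the transcripts of glucagon-led cells in the postpartum libraries. Gcg averaged 21.6% of the UMIs of a glucagon-led cell in the non-pregnant library, 24.7% and 33.3% in pregnant 1 and 2, and 45.3% and 44.7% in postpartum 1 and 2. The group means were 29.0% ± 6.11 (SD, n = 2) in pregnancy and 45.0% ± 0.482 (SD, n = 2) after birth, 2.08 times the non-pregnant and 1.55 times the pregnant mean. The 2 postpartum libraries did not overlap with the other 3 in their means, although single cells of all libraries overlapped.

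Ttr lies on the plus strand of chromosome 18 in the same RefSeq annotation (20664209 to 20674326, 10118 bases), with 4 exons in its main transcript. Its mean in glucagon-led cells was 1.09% of UMIs in the non-pregnant library, 0.971% in pregnant 1 and 1.18% in pregnant 2. It was 2.56% in postpartum 1 and 2.40% in postpartum 2. The group means were 1.07% ± 0.147 (SD, n = 2) in pregnancy and 2.48% ± 0.112 (SD, n = 2) postpartum, 2.28 times the non-pregnant and 2.30 times the pregnant mean. Both postpartum libraries lay above the other 3. The level of pregnant 2, and with it the pregnant mean and SD, was unsteady, at 1.59% without the cells called doublets by Scrublet and 0.356% in its 1 glucagon-led cell of at least 200 UMIs. The median cell was likewise higher in the postpartum libraries, with 0.898%, 0.722%, 2.13% and 2.19% in non-pregnant, pregnant 1, postpartum 1 and postpartum 2. In pregnant 2 the median was 0, since 17 of its 23 glucagon-led cells held no Ttr UMI and 11 of the 29 Ttr UMIs came from 1 cell.

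In glucagon-led cells 823 genes were tested with limma, which fits a linear model to log2 of the mean level plus 100 CPM. Because Gcg defines these cells, its level in them depends on the class rule, whose part in the calls was not tested. Gcg was the only gene called at an adjusted p under 0.05. It was 1.06 higher on the log2 scale (SE 0.14) postpartum than in the non-pregnant library (limma adjusted p = 4.90e-11). Against pregnancy it was 0.65 higher (SE 0.11, limma adjusted p = 1.33e-05). Pregnant minus non-pregnant was 0.41 (SE 0.14, limma adjusted p = 0.457). The share of genes called was 0.122% in either direction in each postpartum comparison and 0% for pregnancy against non-pregnant, where 17 genes had an unadjusted p under 0.05 and edgeR and DESeq2 each called 0.

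The Gcg calls did not hold under every setting. The prior had infinite weight, so the error came from the trend over genes, of which Gcg is the most abundant, and not from its own spread. Both postpartum calls were lost when low genes were kept (adjusted p = 0.101 and 0.988), and when either postpartum library was left out (0.10 to 1). They were also lost in the count tests on recovered UMIs, with differences of 1.62 and 2.07 in edgeR and 1.65 and 1.96 in DESeq2 (adjusted p = 1.0 for each). Without pregnant 1 the postpartum call against non-pregnant was also lost. Pregnant against non-pregnant was then 0.63, with the sparse pregnant 2 as the only pregnant library. The pregnant difference turned to -0.46 in edgeR and -0.31 in DESeq2.

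As for Gcg, the error of Ttr in the main limma fit came from the trend over genes and not from its own spread between libraries. A missed call is therefore no sign that Ttr varied more than Gcg. The Ttr difference was about as large but did not pass the test. It was 1.18 on the log2 scale (SE 1.05, limma adjusted p = 1) for postpartum against non-pregnant and 1.20 (SE 0.86, limma adjusted p = 0.998) for postpartum against pregnant. Pregnant minus non-pregnant was -0.02 (SE 1.05, limma adjusted p = 0.991). Restricted to cells of at least 200 UMIs, which leaves pregnant 2 out, the postpartum differences were 1.19 and 1.35. Without pregnant 1 the difference from pregnancy was 1.06. Without pregnant 2 alone the differences were 1.18 and 1.34. Each of these fits leaves a single pregnant library, so only the differences are given.

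Insulin was also highest in the postpartum libraries. It averaged 24.1%, 30.02%, 32.1%, 44.8% and 52.5% of the UMIs of insulin-led cells in library order. All 7 measured hormones together took 27.4%, 33.5%, 34.0%, 52.8% and 50.1% of the UMIs of glucagon-led cells. Somatostatin in somatostatin-led cells did not follow, with 16.9%, 4.18%, 13.0%, 6.34% and 8.29%. Nor did pancreatic polypeptide in polypeptide-led cells, with 24.4%, 15.2%, 13.0%, 18.6% and 23.3%. The part of these hormone shares in the Gcg and Ttr differences was not tested.

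Since Gcg takes up to 72.9% of the UMIs of a cell, a share of all UMIs couples other genes to it. Per 100 UMIs of genes other than the hormones, pooled over glucagon-led cells, Ttr gave 1.93, 1.98, 2.09, 6.52 and 6.51 UMIs in library order. Gcg gave 37.5, 49.5, 53.7, 124 and 113 on the same scale. Both genes were thus again highest in the 2 postpartum libraries. As a mean share of non-Gcg UMIs, Ttr was 3.28 times higher postpartum than non-pregnant and 3.39 times higher than in pregnancy, where the exact permutation p of 0.333 is the smallest 2 against 2 libraries allow. With non-hormone UMIs as denominator, the limma differences of Ttr were 1.70 (SE 1.1, adjusted p = 1) and 1.84 (SE 0.90, adjusted p = 0.916).

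With all cells kept, the ratio of the 2 transcripts was lowest in the pregnant libraries. For every 100 Gcg UMIs, glucagon-led cells held 5.13 Ttr UMIs in the non-pregnant library (95% counting interval 4.92 to 5.35), 4.0 in pregnant 1 (3.71 to 4.31) and 3.90 in pregnant 2 (2.59 to 5.65). The values were 5.26 in postpartum 1 (4.90 to 5.65) and 5.79 in postpartum 2 (5.58 to 6.00). The group means were 3.95 ± 0.0733 (SD, n = 2) in pregnancy and 5.52 ± 0.369 (SD, n = 2) postpartum, 1.40 times the pregnant and 1.08 times the non-pregnant mean. The pregnant mean was 0.770 times the non-pregnant value, against 0.990 for Ttr and 1.34 for Gcg as shares of UMIs. Postpartum 1 and the non-pregnant library overlapped within counting error, while pregnant 1 lay below both. The wide interval of pregnant 2 rests on 29 Ttr UMIs. Without the cells called doublets by Scrublet, pregnant 2 stood at 5.36, above the non-pregnant library (5.20) and postpartum 1 (5.25). The pregnant mean was then 4.68 ± 0.961 (SD, n = 2). In the 1 glucagon-led cell of pregnant 2 with at least 200 UMIs the ratio was 1.19. The low ratio in pregnancy is thus steady in pregnant 1 only.

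Nearly every glucagon-led cell of the deeper libraries held Ttr. Cells with at least 1 Ttr UMI made up 97.9%, 88.7%, 26.1%, 94.3% and 97.8% of glucagon-led cells in library order, at median depths of 2262, 489, 95, 241 and 656 UMIs. In insulin-led cells the shares were 61.2%, 32.6%, 0%, 9.45% and 25.8%, at 2653, 547, 89, 243 and 558.5 UMIs. Thinned to 100 UMIs per cell, 50% of non-pregnant, 55.3% of pregnant 1, 85.4% of postpartum 1 and 86.0% of postpartum 2 glucagon-led cells held Ttr. Insulin-led cells thinned alike gave 5.74%, 7.90%, 5.47% and 8.48%. In pregnant 2 only 10 glucagon-led cells had enough UMIs, 30% of them with Ttr, and 13 were left out. At equal depth both postpartum shares thus lay above those of the other 3 libraries, as the mean levels did.

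**Figure D2:**
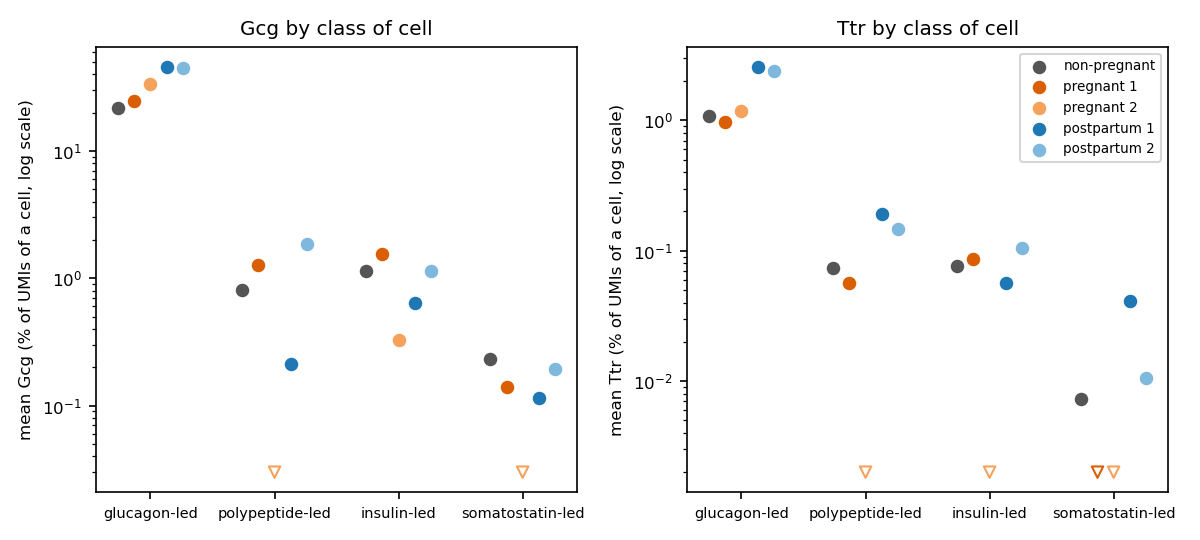
Mean Gcg (left) and Ttr (right) per cell as a percentage of UMIs (log axis) in 4 classes of cell, 1 symbol per library. Open triangles at the bottom mark classes in which no UMI was counted. Ttr was highest in glucagon-led cells and lowest in somatostatin-led cells in the 4 libraries other than pregnant 2, where Ttr was counted in glucagon-led cells only.

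Among the classes, Ttr was highest in glucagon-led cells in the 4 libraries other than pregnant 2. In insulin-led cells it averaged 0.0767% of UMIs in the non-pregnant library, 0.0860% in pregnant 1, 0 in pregnant 2, 0.0564% in postpartum 1 and 0.104% in postpartum 2. In polypeptide-led cells it averaged 0.0739%, 0.0560%, 0.190% and 0.147% in the 4 libraries other than pregnant 2. The third of these values, from postpartum 1, rests on 6 UMIs in 2 cells. Somatostatin-led cells held the least, with 0.00729% in the non-pregnant library, 0 of 21094 UMIs in pregnant 1 (which allows up to 0.0142%), 0.0409% in postpartum 1 from 1 UMI, and 0.0105% in postpartum 2 from 2 UMIs. The glucagon-led mean was 14.2, 11.3, 45.3 and 23.0 times the insulin-led one in non-pregnant, pregnant 1, postpartum 1 and postpartum 2. In pregnant 2, against the limit that 0 of 12002 insulin-led UMIs allows, Ttr was at least 49.7-fold higher. The 3 polypeptide-led cells of that library held 0 Ttr in 236 UMIs, which allows up to 1.27%, so no difference from the glucagon-led level was detectable there.

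Gcg, Ins1, Ins2, Sst and Ppy, which define the classes, were left out of the test between classes. Of the 1036 other genes, Ttr showed the largest difference of glucagon-led from each of the 3 other classes. It was 4.72 higher on the log2 scale than in insulin-led cells (SE 0.47, limma adjusted p = 1.77e-06). It was 4.08 higher than in polypeptide-led cells (SE 0.51, limma adjusted p = 0.000140) and 6.56 higher than in somatostatin-led cells (SE 0.51, limma adjusted p = 5.58e-08). The direction held in each library that gave a value. Genes called higher in glucagon-led cells made up 0.579%, 0.193% and 0.290% of those tested in the 3 comparisons. All 3 Ttr differences passed in each of the 15 alternatives run for them.

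Against insulin-led cells, 5 further genes rose with Ttr. These were Gpx3 (3.30), a secreted glutathione peroxidase, Pappa2 (2.97), a protease of insulin-like growth factor binding proteins, Pyy (2.38), Gnas (1.94), a G protein subunit, and Pcsk2 (0.95), which cuts proglucagon. The 12 genes that fell (1.16%) include the beta cell genes Iapp (-3.70), G6pc2 (-2.89), Ucn3 (-2.71) and Mafa (-1.79), and the prolactin receptor gene Prlr (-2.87). Pappa2 in glucagon-led cells was highest in pregnant 2, at 11180 CPM from 27 UMIs, against 97 to 788 in the other libraries. Its mean in insulin-led cells was at most 68.1 CPM in any library.

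Whether the class difference of Ttr itself changed with pregnancy was tested on the glucagon-led minus insulin-led difference within each library. It was 1.46 larger in pregnancy than in the non-pregnant library (SE 1.79, limma adjusted p = 0.896) and 1.18 larger postpartum (SE 1.79, limma adjusted p = 1.0). Postpartum minus pregnant was -0.29 (SE 1.46, limma adjusted p = 0.934). Of 944 genes tested, 0 were called in each comparison (0%), with 1, 1 and 7 at an unadjusted p under 0.05. These values lean on pregnant 2, whose insulin-led cells held no Ttr UMI. Without it the difference was -0.31 for pregnant against non-pregnant and 1.48 for postpartum against pregnant (limma adjusted p = 0.997 and 0.789). Without pregnant 1, which leaves pregnant 2 as the only pregnant library, they were 3.23 and -2.06 and passed (limma adjusted p = 0.00547 and 0.0194), in fits that called 505 and 540 genes.

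**Figure D3:**
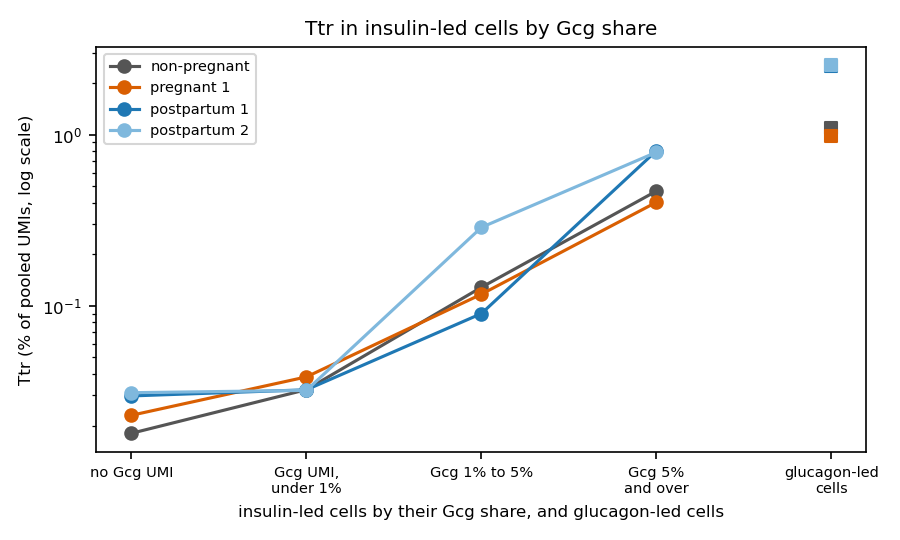
Ttr as a percentage of pooled UMIs (log axis) in insulin-led cells binned by the Gcg share of the cell (circles) and in glucagon-led cells (squares), for the 4 libraries other than pregnant 2. Ttr was 0.0180% to 0.0311% in cells with no Gcg UMI and 0.403% to 0.805% in cells with 5% Gcg or more.

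Not all transcripts of the pair lay in glucagon-led cells. These cells held 64.8%, 50.3%, 91.6%, 96.0% and 89.0% of the Gcg UMIs of their library, and 57.3%, 41.7%, 93.5%, 92.5% and 84.0% of the Ttr UMIs. In the non-pregnant library and pregnant 1 much of the rest was spread thinly over insulin-led cells, where Gcg averaged 1.13% and 1.55% of UMIs and 92.9% and 83.0% of cells held a Gcg UMI. In somatostatin-led cells of these libraries, which should lack glucagon, 84.6% and 50% of cells held one, at median depths of 2169 and 527 UMIs. A Gcg UMI in a cell of another class is therefore not read as expression. Insulin-led Gcg levels were 0.326%, 0.640% and 1.13% in pregnant 2, postpartum 1 and postpartum 2.

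Within insulin-led cells Ttr was higher where Gcg was higher. Cells with no Gcg UMI held 0.0180% Ttr in the non-pregnant library (20 UMIs), 0.0230% in pregnant 1 (39 UMIs), 0.0298% in postpartum 1 (23 UMIs) and 0.0311% in postpartum 2 (37 UMIs). Cells with Gcg at 5% of UMIs or more held 0.468%, 0.403%, 0.805% and 0.789%. In these Gcg-rich cells there were 5.56, 4.68, 5.66 and 6.40 Ttr UMIs per 100 Gcg UMIs, near the ratio in glucagon-led cells of the same library. The ratio was 6.01, 5.10, 3.67 and 11.4 in cells with 1% to 5% Gcg. It was 19.3, 10.3, 9.09 and 11.4 in cells with a Gcg UMI but under 1% Gcg. Ttr in these cells was 0.0324%, 0.0385%, 0.0324% and 0.0321% of UMIs. The bins are cut on Gcg, the divisor of the ratio, so the ratio alone does not tell how Ttr differs between them. In pregnant 2 no insulin-led cell held Ttr, which at 10027 UMIs of cells without Gcg allows up to 0.0299%, a limit as high as the levels measured elsewhere.

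**Figure D4:**
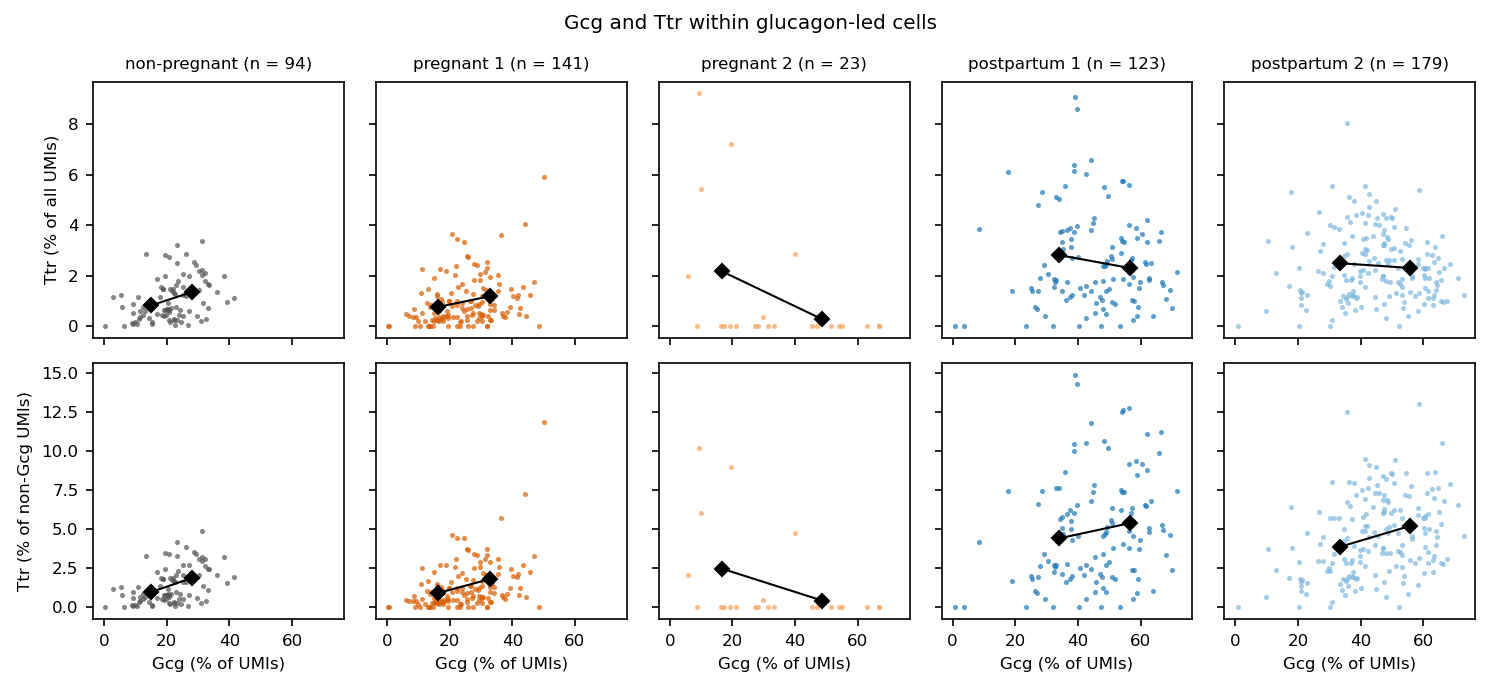
Ttr against Gcg in single glucagon-led cells, with Ttr as a percentage of all UMIs (top) and of non-Gcg UMIs (bottom), 1 column per library and 1 point per cell. Black diamonds join the means of the cells below the median Gcg share and of those at or above it. On non-Gcg UMIs the line rises in all libraries other than pregnant 2, and on all UMIs it falls slightly in both postpartum libraries.

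Within glucagon-led cells, the relation of Ttr to Gcg depended on the denominator. On all UMIs, Ttr averaged 0.821% in non-pregnant cells below the median Gcg share and 1.35% in those at or above it, and 0.755% and 1.18% in pregnant 1. In postpartum 1 it went the other way, from 2.82% to 2.30%, and in postpartum 2 from 2.49% to 2.30%. Here the cells at or above the median had a mean Gcg share of 56.6% and 55.9%. The part of this share in the lower Ttr was not tested. Over the cells of a library, Spearman's rho was 0.41, 0.31, -0.0049 and -0.026 in non-pregnant (n = 94 cells), pregnant 1 (141), postpartum 1 (123) and postpartum 2 (179).

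Ttr was next taken per non-Gcg UMIs, which removes Gcg from its denominator. Non-Gcg UMIs still enter both values, so both remain tied. On this scale Ttr was higher in the Gcg-rich cells of all 4 libraries. It went from 0.986% to 1.90% in the non-pregnant library and from 0.924% to 1.82% in pregnant 1. It went from 4.42% to 5.39% in postpartum 1 and from 3.88% to 5.23% in postpartum 2. Spearman's rho was 0.49, 0.40, 0.28 and 0.35 in the same order. Among cells whose leading hormone held at least 80% of the 4 hormones, rho was lower, at 0.34, 0.26, 0.16 and 0.15. These are descriptions over cells, which share library, depth and a denominator, and no test was made.

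The Gcg-poorer cells also held more insulin on average in all 4 of these libraries. The mean insulin share was 3.96% against 0.909% in pregnant 1, 4.61% against 0.350% in postpartum 1 and 3.86% against 1.21% in postpartum 2, and 1.29% against 1.11% in the non-pregnant library. The part of insulin-bearing barcodes in the relation was not tested. In pregnant 2 the sign was opposite (rho -0.45, n = 23), with Ttr at 2.17% in the Gcg-poorer and 0.268% in the Gcg-richer cells, on 29 Ttr UMIs in 6 cells. Cells of a like Gcg share still differed in Ttr between libraries, as a description with no test. With Gcg at 30% to 40% of UMIs, Ttr averaged 1.56% ± 0.203 (SEM over 16 cells) in the non-pregnant library and 1.05% ± 0.152 (31 cells) in pregnant 1. It averaged 3.41% ± 0.382 (31 cells) in postpartum 1 and 2.34% ± 0.263 (42 cells) in postpartum 2, and 0.952% ± 0.952 in 3 cells of pregnant 2. With Gcg at 20% to 30% the gap was smaller, at 1.15% in both the non-pregnant library (42 cells) and pregnant 1 (46 cells) and 1.87% and 1.90% in postpartum 1 (11 cells) and 2 (17 cells). With Gcg at 40% to 50%, Ttr was 1.25% in pregnant 1 (11 cells) and 2.26% and 3.03% in postpartum 1 (27 cells) and 2 (48 cells), so the order of the postpartum libraries turned.

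At the border of the class, glucagon led with under 60% of the 4 hormones in 10, 15, 0, 6 and 10 cells, whose mean Gcg was 10.1% to 25.6% and Ttr 0.348% to 1.26%. Just outside it, 2, 9, 0, 3 and 7 insulin-led cells had Gcg at 40% or more of the hormones, with mean Gcg of 12.4% to 20.4% and Ttr of 0.410% to 0.753%. Glucagon-led cells in which insulin also took at least 10% of UMIs numbered 0, 12, 0, 12 and 13, with Ttr at 1.02%, 1.83% and 1.76% in pregnant 1, postpartum 1 and postpartum 2.

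Lists of genes around the pair were read in the same fit of glucagon-led cells, where none of their members passed in any comparison. Among 18 transcription factors of the glucagon gene, 12 were measured and 7 tested. Their median difference was -0.80, -0.16 and 0.64 for pregnant against non-pregnant, postpartum against non-pregnant and postpartum against pregnant, beside -0.70, -0.32 and 0.37 over all genes tested. Irx2, highest by its mean level, stood at 66.9, 196, 3162, 54.7 and 96.1 CPM in library order, the value of pregnant 2 coming from 8 UMIs. Etv1 stood at 413, 446, 0, 425 and 270 CPM. Etv1 was thus at 0 in the sparse pregnant 2 only, which lowers its pregnant mean.

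Of 17 genes of proglucagon processing and the secretory granule, 16 were measured and 13 tested, with medians of -1.28, -0.53 and 0.98. Pcsk2, the convertase that makes glucagon, was at 5322, 8375, 8902, 7434 and 10694 CPM, a postpartum minus pregnant difference of 0.05 (SE 1.15). Chga, a granule protein, was at 3052, 3049, 8316, 3646 and 4424. As shares of all UMIs, neither gene was highest in both postpartum libraries, as Gcg was. The pregnant 2 values rest on 32 UMIs for Pcsk2 and 19 for Chga. Leaving pregnant 2 aside, Chga was highest in both postpartum libraries and Pcsk2 was not. The order of the 2 genes on non-Gcg UMIs was not computed. Between classes, 1 of the 14 tested, Pcsk2, rose in glucagon-led against insulin-led cells, beside 0.579% of all genes tested. Against 1.16% of all genes, 3 of the 14 fell, Pcsk1 (-2.74), the convertase of proinsulin, and the granins Chgb (-2.62) and Scg2 (-2.60). Slc30a8, the granule zinc transporter, was higher than in polypeptide-led cells (1.89, limma adjusted p = 0.0136) and somatostatin-led cells (1.79, limma adjusted p = 0.00918), and 0.33 against insulin-led cells did not pass.

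Of 22 genes that control glucagon secretion, 13 were measured and 3 tested, with medians of -1.30, -0.26 and 0.76. Abcc8, a subunit of the ATP-sensitive potassium channel, was at 432, 366, 0, 323 and 366 CPM, and Slc7a2, a carrier of basic amino acids, at 198, 321, 0, 240 and 254. Of 21 genes that bind or respond to the cargo of transthyretin, 6 were measured and 2 tested, with medians of -0.97, -0.49 and 0.47. Rbp4, the retinol-binding protein that travels with transthyretin, was at 571, 824, 0, 482 and 269 CPM. It was thus not highest in the postpartum libraries, where Ttr was. The thyroid hormone transporter gene Slc16a10 was at 175, 152, 0, 92 and 111 CPM.

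Of 25 other genes enriched in alpha cells, 11 were measured and 6 tested, with medians of -1.12, -0.84 and 0.73. Gpx3 was at 3367, 2205, 3757, 952 and 1084 CPM, lowest in the 2 postpartum libraries in which Gcg and Ttr were highest. The difference postpartum against pregnant was -1.42 (SE 1.71, limma adjusted p = 0.998). Gc, the vitamin D binding protein, was at 405, 220, 0, 423 and 345 CPM.

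Over the 18 means of a library and class with at least 10 cells, Ttr was the gene most like Gcg of 1041 genes (Pearson's r = 0.92 on log2 levels). Behind it came Fndc3b (0.74), Pappa2 (0.67), Irx2 (0.62), Gpx3 (0.62) and Slc30a8 (0.60). For Ttr, Gcg was followed by Lpl (0.69), which encodes lipoprotein lipase, Pappa2 (0.68), Cst3 (0.60), Fndc3b (0.59) and Slc30a8 (0.58). The means share libraries, depth and the class rule that uses Gcg, so these values are a description. No other gene came near the likeness of the pair.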

How the data were processed

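The submitters' processing notes name GRCm38, mm10, Partek 8.0 and Bowtie 1.1.1 without saying what each did. How cells and features were counted and filtered is not given in the sources used here. As values, the authors deposited the non-pregnant cells as a linear signal, scaled to a sum of 3023.99 per cell over 40930 features. The other deposited files hold log2 of CPM plus 1 over 6695 features. UMI counts were recovered from both, and 100% of values came out within 0.1 of a whole number. In pregnant 2, 9 cells had a smallest value over 1 UMI. Genes were matched by symbol (6543) or unique synonym (83).

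A level is the mean over cells of the share of a cell's UMIs, all deposited cells kept. Total UMIs were 2561319, 1271186, 16306, 148522 and 781832 in library order. Limits for a count of 0 use 3 counts, and exact intervals 95%. The main test was limma 3.58.1 (R 4.3.3, trended prior) on log2 of the mean CPM plus 100. Genes needed a mean of 100 CPM and libraries 10 cells of the class. P-values are two-sided with Benjamini-Hochberg adjustment and a threshold of 0.05. The fit between classes had the library as a block. For the non-pregnant group, with 1 library, the spread of the other groups is assumed. Alternatives included edgeR 4.0.16 and DESeq2 1.42.0 on recovered UMIs (0 genes called between groups in glucagon-led cells). Scrublet (scanpy 1.11.5) called 38 cells, removed in an alternative only. Scripts were tested on simulated data.

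Named genes are Gcg, Ttr, list members that were called or have the highest levels, and the 6 genes most like each. Others, such as those called between classes and the examples given for a list, were chosen after their values were seen. The members and lists were chosen with earlier results of these data known. Some items of the lists are not reported here, and the counts and sums over lists leave them out.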

Additional observations from a re-analysis of the deposited data

How the results depend on the processing

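The 3 Ttr differences between classes kept direction and call in all 15 alternatives run for each (3.33 to 5.50, 3.06 to 4.96 and 3.95 to 8.24 on the log2 scale against insulin-, polypeptide- and somatostatin-led cells). Genes called against insulin-led cells numbered 18, 56 in cells of at least 200 UMIs and 266 in edgeR. Against polypeptide-led cells 3 were called (2 to 13 over the alternatives) and against somatostatin-led cells 11 (1 to 58). For the change in the class difference, 0 were called in each comparison (up to 505, 2 and 540 over the alternatives). In glucagon-led cells, the order below is pregnant against non-pregnant, postpartum against non-pregnant, postpartum against pregnant. Gcg for the first passed with a constant of 1000 (0.41), non-hormone UMIs as denominator (0.69) and a leading hormone of at least 80% (0.33). It was 0.63 with pregnant 1 left out, which leaves pregnant 2 as the only pregnant library. It reversed in edgeR (-0.46) and DESeq2 (-0.31). Leaving out 1 library gave 0.19 to 0.63, 1.05 to 1.07 and 0.43 to 0.86 for Gcg. For the other comparisons Gcg missed the threshold with no filter on low values (1.06, 0.65), edgeR (1.62, 2.07) and DESeq2 (1.65, 1.96). For Ttr, cells of at least 200 UMIs, with a single pregnant library, gave 1.19 and 1.35. For the first comparison Ttr reversed with pooled UMIs (0.023), without Scrublet calls (0.18) and without pregnant 1 (0.12), with -0.16 to 0.12 over libraries left out, and 1.06 to 1.34 for postpartum against pregnant. Genes called moved from 0, 1 and 1 to 3 and 4 (constant of 1000, first and second), 185, 176 and 0 (no filter), 1 (non-hormone denominator and leading hormone of at least 80%, first), 32, 133 and 49 (at least 200 UMIs), 2 (no Scrublet calls, second), 0 and 0 (edgeR, DESeq2), and 0 to 473, 0 to 5 and 0 to 465 with a library left out. The change in the class difference of Ttr reversed for pregnant against non-pregnant (-0.31 with at least 200 UMIs and without pregnant 2) and for postpartum against pregnant (0.75 with a constant of 1000, 0.11 with a leading hormone of at least 80%, 1.45 with at least 200 UMIs, 1.48 without pregnant 2, 0.15 without postpartum 2). Leaving out libraries gave -0.31 to 3.23 and -2.06 to 1.48, and without pregnant 1 both passed (adjusted p = 0.00547 and 0.0194). The cause of these changes was not tested. The share of glucagon-led cells moved to 5.55% in pregnant 1 (leading hormone of at least 80%) and 25% in pregnant 2 (1 of 4 cells of at least 200 UMIs). The denominator of shared-gene UMIs was chosen after seeing the data and changed no call of Gcg or Ttr.

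Same-numbered libraries did not deviate together (r = 0.0025 over 721 genes in glucagon-led and 0.069 over 844 in insulin-led cells). Pregnant 2, with a median of 89 UMIs per cell, is too sparse for this to decide whether the numbers pair libraries. With a replicate block, postpartum minus pregnant was 0.65 for Gcg, 1.20 for Ttr and -0.29 for the class difference of Ttr, and 1 of 721 genes was called. Depth limits pregnant 2 most, where 3 counts are 0.128% of glucagon-led UMIs.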
